A study of Mus musculus with 12 samples.

Results

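The 44 genes described here encode proteins of mitosis and cytokinesis, from entry into mitosis to the final split of the daughter cells. They were taken by symbol from a list of such genes, with no threshold on their values, and are 44 of the 38293 genes in the count table. The list was chosen with earlier results of these data known, so counts and medians over it are descriptions and no independent test. All 44 passed the filter on low counts and stood among the 14770 genes tested. Their RNA was measured by sequencing polyadenylated transcripts of mouse left ventricles (strain C57BL/6J, healthy animals). The heart muscle had received 2 injections of 10 µl through the opened chest, and tissue was taken at day 3. There were 12 libraries, 4 for each injected material: phosphate-buffered saline (PBS), Upy-PEG (a supramolecular poly(ethylene glycol) hydrogel), and Upy-PEG loaded with antimiR-195, an inhibitor of the microRNA miR-195. All 3 groups thus share the surgery and the injections, and no uninjected heart is part of these comparisons. The labels used here give no age, sex or genotype beyond the strain, and whether the 4 libraries of a group are 4 animals is not said. P-values therefore reflect only the variation among these samples, which may be technical.

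A cell enters mitosis when cyclin B with its kinase Cdk1 becomes active, helped by the Plk1 and Aurora A kinases. Condensins and topoisomerase II then fold and untangle the chromosomes, kinesin motors build the spindle, and kinetochores attach each chromosome to its microtubules. A checkpoint holds the cell until every chromosome is attached, after which the anaphase-promoting complex has cyclin B and securin destroyed. The chromosomal passenger complex moves to the spindle midzone, and a contractile ring divides the cell. Transcripts of these genes build up in the G2 phase and in mitosis and are low in resting cells. Most cardiomyocytes of the adult mouse have left the cell cycle, so in a whole ventricle such transcripts can come from any dividing cell type. In bulk tissue, fewer dividing cells and less RNA per dividing cell cannot be told apart.

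Genes of this kind are known to share a short promoter element, the cell cycle genes homology region (CHR), often downstream of CCAAT boxes bound by NF-Y. The CHR is bound by the DREAM complex in resting cells and by MuvB with B-Myb and FoxM1 in dividing cells. Promoter windows of 300 bases (250 before and 50 after the annotated start, RefSeq, GRCm38.p6) were matched by symbol for 37 of the 44 genes. The letters TTTGAA or TTCGAA were searched as the CHR and CCAAT as the CCAAT box, each on both strands. A CHR match was present in 31 of the 37 genes (83.8%), against 21.7% of the 26994 genes with a window. A CCAAT match was present in 29 of 37 (78.4%), against 41.0% of all, and both motifs in 27 of 37 (73.0%), against 9.6% of all. In the genes with more than 1 annotated start, a match in any window counted. Taken by window, both motifs stood in 29 of the members' 39 windows (74.4%) and in 7.5% of all 32817 windows. A match is a description of the letters and not proof of a bound site.

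The 8 stretches printed here run from 150 bases before the start to 50 after it, on the gene's own strand, 5′ to 3′. They belong to the gene of highest mean count with a CHR match in each of the 8 steps described, and are shown because motif and spacing can be read in them. Capitals mark the matches to the CHR (TTTGAA or TTCGAA, reverse TTCAAA) and to the CCAAT box (CCAAT, reverse ATTGG).
Mki67 (chr7:135716330-135716529, minus strand): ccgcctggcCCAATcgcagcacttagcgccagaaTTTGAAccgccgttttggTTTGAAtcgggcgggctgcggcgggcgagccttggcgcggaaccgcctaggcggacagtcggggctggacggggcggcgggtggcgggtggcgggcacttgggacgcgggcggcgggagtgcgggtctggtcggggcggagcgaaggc
Top2a (chr11:99024140-99024339, minus strand): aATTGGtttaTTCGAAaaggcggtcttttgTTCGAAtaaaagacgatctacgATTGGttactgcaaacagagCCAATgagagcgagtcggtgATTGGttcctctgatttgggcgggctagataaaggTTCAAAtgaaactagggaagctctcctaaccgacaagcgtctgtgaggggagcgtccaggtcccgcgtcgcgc
Kif11 (chr19:37376232-37376431, plus strand): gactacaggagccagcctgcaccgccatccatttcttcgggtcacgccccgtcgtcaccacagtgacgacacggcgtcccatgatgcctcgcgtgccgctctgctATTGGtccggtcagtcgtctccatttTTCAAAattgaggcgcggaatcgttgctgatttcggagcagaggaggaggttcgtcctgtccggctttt
Cenpa (chr5:30666736-30666935, plus strand): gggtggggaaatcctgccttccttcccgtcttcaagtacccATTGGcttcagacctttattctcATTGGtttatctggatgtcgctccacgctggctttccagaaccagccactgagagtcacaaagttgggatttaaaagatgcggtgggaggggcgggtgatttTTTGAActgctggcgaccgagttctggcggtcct
Bub1b (chr2:118598061-118598260, plus strand): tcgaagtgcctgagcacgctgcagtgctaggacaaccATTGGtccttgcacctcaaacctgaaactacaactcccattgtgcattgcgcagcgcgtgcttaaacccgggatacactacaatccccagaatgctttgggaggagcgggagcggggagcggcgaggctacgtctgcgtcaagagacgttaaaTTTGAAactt
Ube2c (chr2:164769779-164769978, plus strand): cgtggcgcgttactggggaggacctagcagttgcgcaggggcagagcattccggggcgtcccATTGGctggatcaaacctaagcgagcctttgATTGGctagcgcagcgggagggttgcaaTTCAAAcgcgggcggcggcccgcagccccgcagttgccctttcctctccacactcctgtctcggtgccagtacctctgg
Cdca8 (chr4:124936868-124937067, minus strand): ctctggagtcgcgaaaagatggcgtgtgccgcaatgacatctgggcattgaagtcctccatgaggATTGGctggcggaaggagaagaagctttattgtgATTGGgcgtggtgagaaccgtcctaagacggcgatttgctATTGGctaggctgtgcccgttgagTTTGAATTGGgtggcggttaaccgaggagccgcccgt
Prc1 (chr7:80294301-80294500, plus strand): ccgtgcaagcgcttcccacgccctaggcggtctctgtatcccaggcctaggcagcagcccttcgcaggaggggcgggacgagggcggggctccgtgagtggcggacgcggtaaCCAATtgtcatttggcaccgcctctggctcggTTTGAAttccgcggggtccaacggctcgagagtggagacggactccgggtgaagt

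In Cdca8 a CHR and a CCAAT match share letters and stand as 1 run of capitals. With 1 window per gene, 30 of the 42 CHR matches began within 50 bases of the start, and the CCAAT matches lay further upstream, at a median of -69 bases against -9 for the CHR. A CHR match followed a CCAAT match by at least 20 bases in 24 genes, and the shortest such distance was 20 to 45 bases in 16 of them, with a median of 35 bases over the 24. Closer pairs were left out and the closest remaining pair was taken, which favours short distances. The spacing was not computed over all windows, so these distances cannot show a preferred spacing. Among the printed windows, that of Kif11 held its CCAAT match at -45 and its CHR match at -19, and that of Prc1 at -37 and -5. Top2a held 4 CHR and 6 CCAAT matches over its whole window. Cenpa, whose RNA level differed least between Upy-PEG and PBS, held a CHR match at 17 and CCAAT matches at -109 and -86. Neither motif was found in the windows of Mad2l1, Melk, Ncaph and Nuf2.

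**Figure D1:**
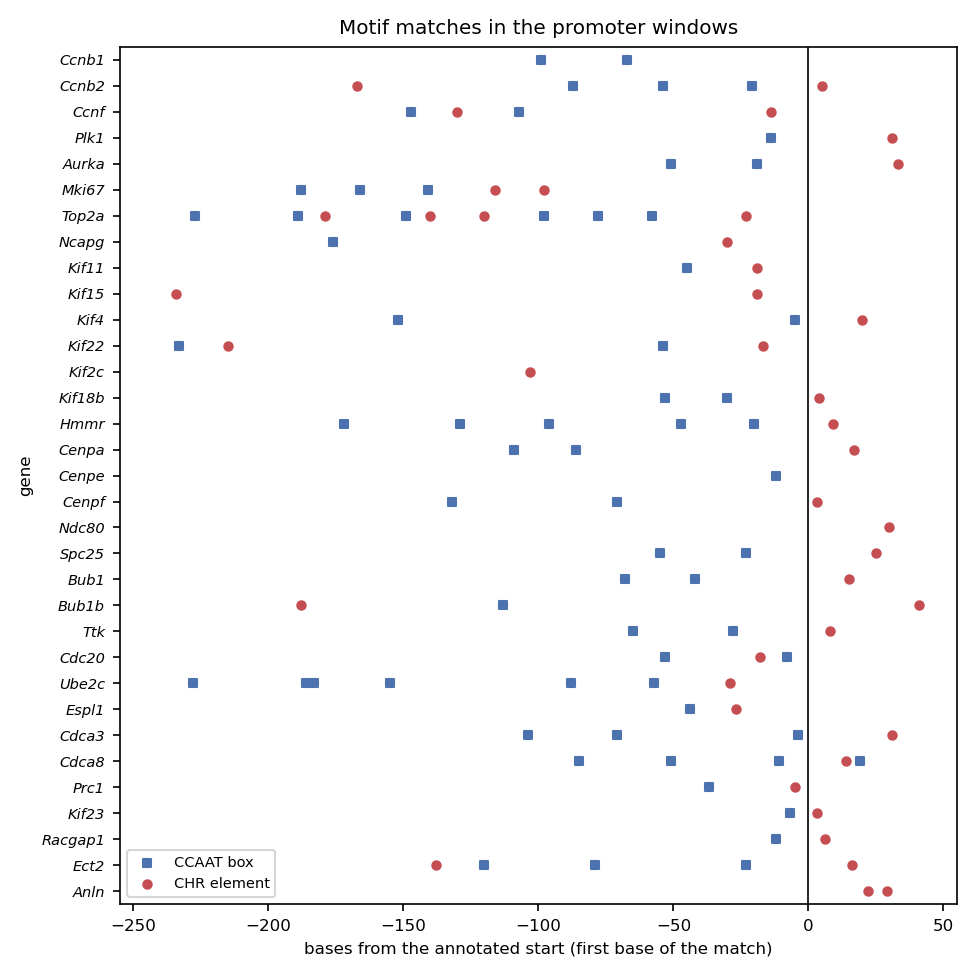
Positions of CHR matches (red circles) and CCAAT matches (blue squares) in the promoter windows of the 33 genes with a match, 1 window per gene; the x axis gives bases from the annotated start to the first base of the match. Of the 42 CHR matches, 30 lie within 50 bases of the start, and CCAAT matches lie mostly upstream.

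Read depth was 22.4 to 30.3 × 10⁶ gene counts per library. The 44 genes were lowly expressed, with 12 counts for the least covered gene in its lowest library (Ttk) and up to 1519 for Cenpa. Markers of cardiomyocytes summed to between 69900 and 108500 CPM (counts scaled to a common library size with TMM factors) in every library, as the tissue label implies. Libraries 2 and 3 of the antimiR-195 group stood apart from the others on the first principal component of all genes, which held 35.1% of the variance, and in their dependence on gene length. Values without them are given where they matter. On the second component, which held 22.2% of the variance, Upy-PEG replicate 1 lay lowest at -47.5. PBS replicates 1 and 2 lay highest there, at 28.5 and 24.9.

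Per length, in the deposited RPKM (reads per kilobase of gene, scaled to library size), Cenpa was the most abundant of the 44 genes, with a mean of 15.1 RPKM over the 12 libraries. Ccnb2 followed at 3.36 RPKM, then Cdc20 at 3.07, Mad2l1 at 3.04, Ccna2 at 2.86, Incenp at 2.82 and Ube2c at 2.76. The lowest were Ncapg at 0.366, Ttk at 0.474 and Kif15 at 0.481 RPKM. Between the lowest gene and Ccnb2 the levels spanned less than 10-fold, and Cenpa alone lay above that range.

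In the Upy-PEG libraries, RNA of all 44 genes was higher on average than in PBS, with a median log2 fold change of 1.11, a 2.16-fold difference. Over all genes tested the median was -0.03. No gene of the 44 passed an adjusted p of 0.05 in edgeR's quasi-likelihood test, and no gene of the whole table did (0%); the smallest adjusted p among the 44 was 0.0971. At an unadjusted p under 0.05, 42 of the 44 were higher in Upy-PEG, against 9.33% of all genes tested. In 31 of the 44 every Upy-PEG library lay above every PBS library, against 5.91% of all genes. Because the list was chosen with earlier results known, these shares describe the 44 genes and do not test them as a set. DESeq2 called 33 of the 44 higher (3.29% of the genes it tested) and limma voom with sample weights called 31 (4.75%), so whether these genes pass depends on the tool. Leaving out each library in turn kept the median between 0.90 and 1.33, the lowest without Upy-PEG replicate 1. For 5 of the 44 genes (Foxm1, Hmmr, Bub1b, Cenpa and Cenpf) leaving out 1 library moved the log2 fold change by more than 1.5 times.

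Adding antimiR-195 to the hydrogel went with lower RNA: 43 of the 44 genes were lower than in Upy-PEG alone, with a median log2 fold change of -0.81, or 0.570-fold, against -0.01 over all genes. No gene passed the adjusted threshold in edgeR (0% of all genes); the smallest adjusted p was 0.364. At an unadjusted p under 0.05, 31 were lower, against 6.4% of all genes, and in 14 the groups did not overlap, against 2.46%. DESeq2 called Mki67 and Ccnf lower (0.0698% of its genes), and limma voom called none of the 44 and no gene at all (0%). The Upy-PEG libraries serve in this comparison and in that with PBS, so a high Upy-PEG library moves both. Single libraries mattered here: without Upy-PEG replicate 1 the median was -0.55 and 17 genes were lower at an unadjusted p under 0.05, against 2.79% of all genes tested in that fit. Without antimiR-195 replicate 2 the median was -1.09, and 41 genes were lower at that p, against 6.86% of all genes, and 39 did not overlap, against 5.06%. Without Upy-PEG replicate 3, 28 did not overlap, against 6.49%. In a fit added after the data were seen, antimiR-195 replicates 2 and 3 were both left out. There all 44 genes were lower, at a median of -1.02, and 39 did not overlap, against 10.8% of all genes. The log2 fold change of 18 of the 44 genes moved by more than 1.5 times when some library was left out.

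Against PBS, the antimiR-195 libraries were nearer: 38 of the 44 genes were higher and 6 lower, with a median log2 fold change of 0.25 (1.19-fold), against 0.01 over all genes. None passed the adjusted threshold in edgeR (0% of all genes), DESeq2 (0.185% of genes called higher) or limma voom (0%); the smallest adjusted p in edgeR was 0.253. Mad2l1, Ube2c and Spc25 were higher at an unadjusted p under 0.05, 3 of 44, which is near the 8.65% of all genes. Only Mad2l1 showed no overlap, against 2.74% of all genes. Its log2 fold change was 0.51 (SE 0.17), that of Ube2c 0.79 (SE 0.31), the highest of the 44, and that of Spc25 0.75 (SE 0.33). The lowest was Bub1b at -0.25 (SE 0.26). Leaving out antimiR-195 replicate 2 brought the median to 0.04, with 25 genes higher and 19 lower. Leaving out antimiR-195 replicates 2 and 3 together brought it to 0.12, with 31 genes higher and 13 lower. Over the fits that left out a library, the genes at an unadjusted p under 0.05 numbered 1 (without antimiR-195 replicate 2 or PBS replicate 1 or 2) to 7 (without antimiR-195 replicate 1, where 11.7% of all genes reached that p), and those without overlap 1 to 4 (without PBS replicate 4, where 4.39% of all genes did not overlap). In 43 of the 44 genes the log2 fold change moved by more than 1.5 times when some library was left out: without antimiR-195 replicate 2 it was 0.39 for Ube2c and 0.33 for Spc25, and without PBS replicate 4 it was -0.13 for Bub1b. Without PBS replicate 1 the median was 0.10 and without PBS replicate 4 it was 0.46.

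**Figure D2:**
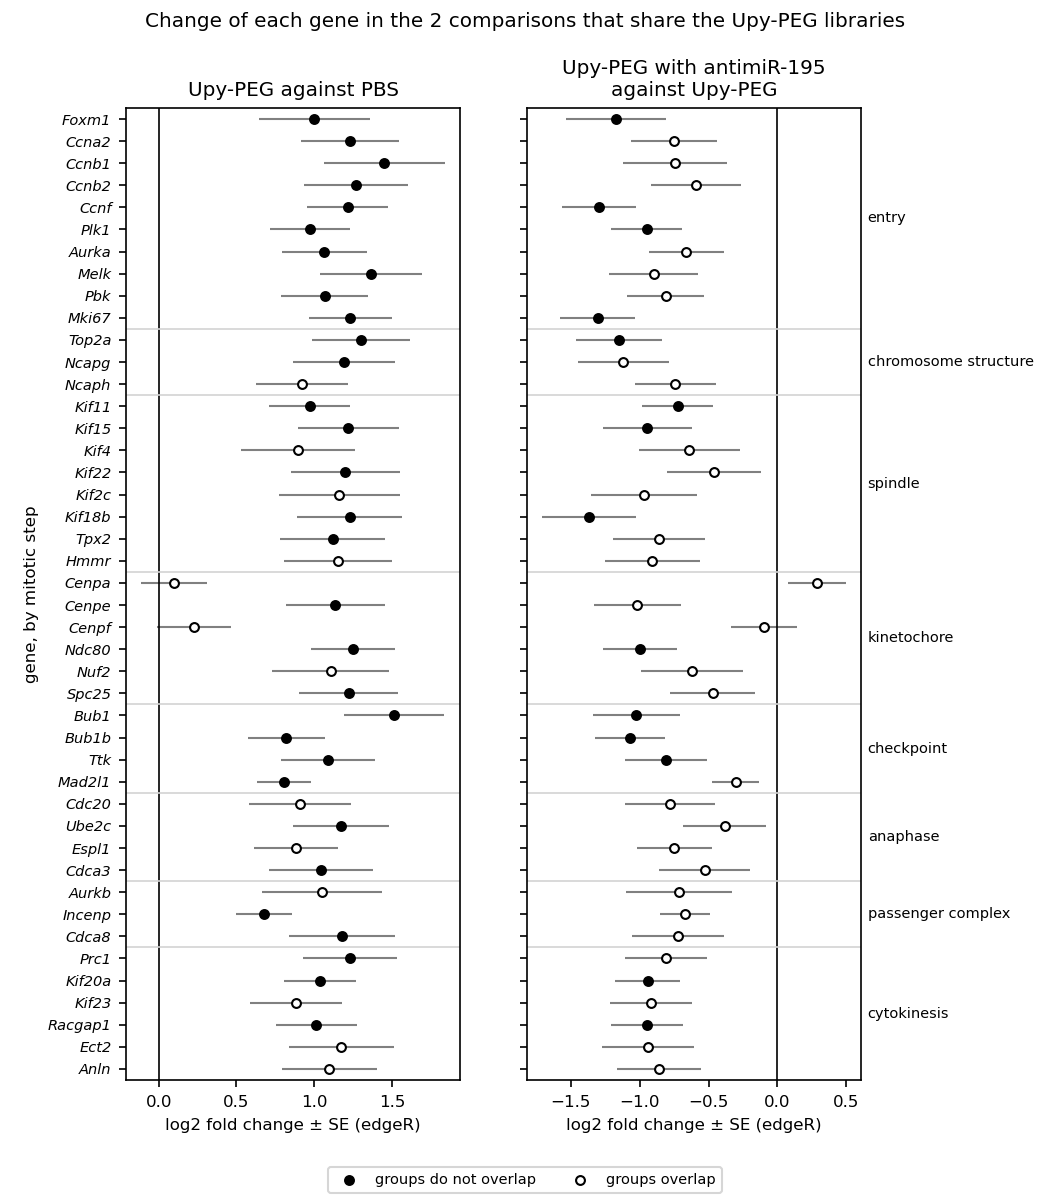
Log2 fold change ± SE (edgeR, n = 4 libraries per group) of each of the 44 genes, ordered by step, for Upy-PEG against PBS (left) and Upy-PEG with antimiR-195 against Upy-PEG (right); filled points mark genes whose groups do not overlap. All 44 points lie above 0 on the left and 43 lie below 0 on the right, where Cenpa is the exception.

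The spread between libraries of a group was wide and shared by the genes. For each library, the mean over the 44 genes of log2 CPM minus the gene's own mean over all libraries was -0.82, -0.79, -0.15 and 0.02 in PBS replicates 1 to 4. The Upy-PEG libraries stood at 1.14, 0.65, 0.19 and 0.46, and the antimiR-195 libraries at -0.47, 0.35, -0.46 and -0.13. Every Upy-PEG library thus lay above every PBS library, while antimiR-195 replicate 2 lay above the lowest Upy-PEG library. Summed over the 44 genes, the level was 190 ± 43.9 CPM in PBS, 356 ± 93.5 CPM in Upy-PEG and 228 ± 64.2 CPM in the antimiR-195 group (mean ± SD, n = 4). Upy-PEG replicate 1 was the highest of all 12 libraries for 39 of the 44 genes, and antimiR-195 replicate 2 for 4 (Ccnb2, Cenpa, Spc25 and Cdca3). PBS replicate 1 was the lowest for 20 genes and PBS replicate 2 for 16.

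**Figure D3:**
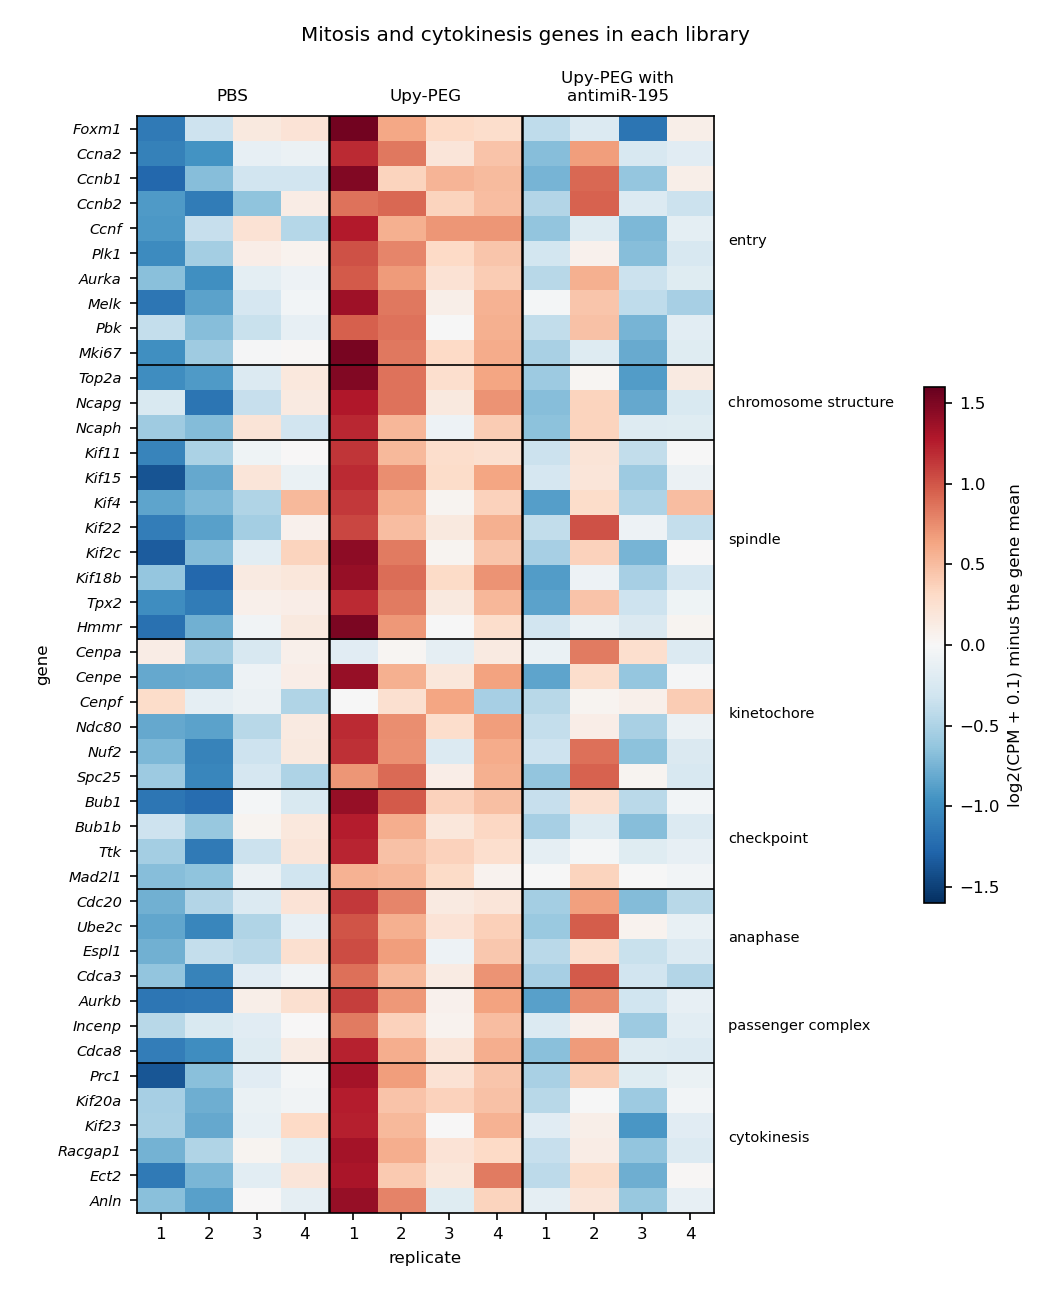
Heat map of the 44 genes (rows, by step) in the 12 libraries (columns); colour gives log2(CPM + 0.1) minus the gene's mean over the 12 libraries. Upy-PEG replicate 1 is the highest library for 39 genes, PBS replicates 1 and 2 are low across nearly all rows, and Cenpa and Cenpf do not follow the other rows.

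Among the 10 genes of entry into mitosis, all 10 were higher in Upy-PEG without overlap with PBS, against 5.91% of all genes tested. Their log2 fold changes ran from 0.98 to 1.45, with a median of 1.22. Mki67 encodes Ki-67, the standard marker of cycling cells, which coats mitotic chromosomes. PBS replicates 1 to 4 held 7.69, 10.2, 15.1 and 15.4 CPM of Mki67, the Upy-PEG libraries 44.1, 27.4, 19.1 and 23.01 CPM, and the antimiR-195 libraries 10.6, 13.2, 8.7 and 13.3 CPM. The antimiR-195 values stood inside the PBS range, and all of them lay below the Upy-PEG values. The log2 fold change was 1.23 (SE 0.27) for Upy-PEG against PBS (edgeR adjusted p = 0.0971) and -1.31 (SE 0.27) for antimiR-195 against Upy-PEG (adjusted p = 0.364).

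Ccnf encodes cyclin F, the substrate receptor of an SCF ubiquitin ligase in G2. Its levels were 1.01, 1.53, 2.37 and 1.43 CPM in PBS, 4.97, 3.01, 3.33 and 3.32 CPM in Upy-PEG and 1.25, 1.72, 1.17 and 1.78 CPM with antimiR-195. Upy-PEG lay above both other groups in every library, and Upy-PEG replicate 1 was far above the other 3. Its differences were 1.22 (SE 0.26) against PBS (adjusted p = 0.0971) and -1.297 (SE 0.27) for antimiR-195 against Upy-PEG (adjusted p = 0.364), both on the log2 scale. Foxm1 encodes a transcription factor that switches on G2 and mitosis genes. Its 4 PBS libraries held 1.56, 2.8, 3.96 and 4.14 CPM, those of Upy-PEG 10.5, 5.49, 4.44 and 4.32 CPM, and those of antimiR-195 2.65, 3.01, 1.51 and 3.79 CPM. The groups PBS and Upy-PEG were separated by a narrow gap, since PBS replicate 4 lay close to Upy-PEG replicate 4. Foxm1 shares bases on its own strand with the annotated genes Tex52 and Gm44596, so part of its count is uncertain. Its log2 fold change against PBS was 1.002 (SE 0.36) (adjusted p = 0.227), and 0.62 without Upy-PEG replicate 1.

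The cyclins A2, B1 and B2, which drive Cdk1, differed by 1.23 (SE 0.32), 1.45 (SE 0.39) and 1.27 (SE 0.34) on the log2 scale between Upy-PEG and PBS. Ccnb1 had the largest fold change of the step. Between antimiR-195 and Upy-PEG their differences were -0.75 (SE 0.31), -0.74 (SE 0.38) and -0.59 (SE 0.33), and all 3 overlapped through antimiR-195 replicate 2 alone. Without that library the values of Ccnb1 and Ccnb2 were -1.22 and -1.05, and without Upy-PEG replicate 1 that of Ccnb1 was -0.403. The kinase genes Plk1, Aurka, Melk and Pbk ranged between 0.98 and 1.37 in Upy-PEG against PBS. Of the 4, Plk1 was the only one without overlap between antimiR-195 and Upy-PEG, against 2.46% of all genes tested.

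Of the genes for chromosome structure, Top2a encodes topoisomerase IIα, which untangles sister DNAs, and Ncapg and Ncaph encode subunits of condensin I. For Top2a the PBS libraries read 6.78, 7.17, 11.6 and 15.3 CPM, the Upy-PEG libraries 38.04, 24.9, 16.4 and 21.1 CPM and the antimiR-195 libraries 9.002, 13.8, 7.28 and 15.01 CPM. Its Upy-PEG values were above both other groups in every library. The log2 fold changes were 1.301 (SE 0.31) against PBS (adjusted p = 0.0999) and -1.15 (SE 0.31) for antimiR-195 against Upy-PEG (adjusted p = 0.364). Ncaph held 2.18, 1.99, 3.79 and 2.63 CPM in PBS, 7.68, 4.79, 3.095 and 4.396 CPM in Upy-PEG and 2.04, 4.22, 2.83 and 2.86 CPM with antimiR-195. PBS replicate 3 reached above Upy-PEG replicate 3, so the groups overlapped, with a log2 fold change of 0.92 (SE 0.29) against PBS (adjusted p = 0.178). Ncapg differed by 1.19 (SE 0.33) without overlap.

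The 8 spindle genes were higher in Upy-PEG by a median log2 fold change of 1.16, with a narrow range from 0.90 to 1.23. Of the 8, 5 did not overlap with PBS, against 5.91% of all genes tested. Tpx2 encodes a spindle assembly factor that activates Aurora A. Its levels stood at 3.35, 3.05, 7.16 and 7.33 CPM in PBS, 15.7, 12.1, 7.58 and 9.83 CPM in Upy-PEG and 3.71, 9.34, 5.38 and 6.46 CPM with antimiR-195. PBS replicates 3 and 4 came close to Upy-PEG replicate 3 without reaching it. The difference from PBS was 1.12 (SE 0.34) (adjusted p = 0.149). Kif15 encodes a kinesin that helps keep the spindle poles apart. It read 0.717, 1.103, 2.33 and 1.87 CPM in PBS, 4.75, 3.47, 2.5 and 3.18 CPM in Upy-PEG and 1.67, 2.32, 1.32 and 1.896 CPM with antimiR-195. Upy-PEG was highest in every library, with 1.22 (SE 0.32) against PBS (adjusted p = 0.115) and -0.94 (SE 0.32) for antimiR-195 against Upy-PEG (adjusted p = 0.364).

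Kif4 encodes a chromokinesin that binds chromosome arms and later the midzone. Its values were 1.47, 1.61, 1.92 and 3.94 CPM in PBS, 6.09, 4.097, 2.82 and 3.55 CPM in Upy-PEG and 1.44, 3.36, 1.91 and 3.87 CPM in the antimiR-195 group. PBS replicate 4 and antimiR-195 replicates 2 and 4 stood within the Upy-PEG range, and the difference from PBS was 0.896 (SE 0.37) (adjusted p = 0.304), the highest p of the step. Kif18b, a kinesin of microtubule plus ends, had the lowest fold change of all 44 genes for antimiR-195 against Upy-PEG, -1.37 (SE 0.34), with no overlap. Kif11, the motor that pushes the poles apart, also did not overlap in that comparison, at -0.73 (SE 0.26), or -0.48 without Upy-PEG replicate 1. The chromokinesin gene Kif22 differed there by -0.46 (SE 0.34), which was -0.94 without antimiR-195 replicate 2 and -0.26 without Upy-PEG replicate 1. Kif2c, whose protein depolymerises microtubules, and Hmmr, a microtubule-binding protein of the poles, overlapped in both comparisons. Hmmr differed from PBS by 1.15 (SE 0.35), and by 0.76 without Upy-PEG replicate 1.

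At the kinetochore the genes divided into those that followed the other steps and those that did not. Cenpa encodes the histone H3 variant that marks the centromere. It held 40.1, 24.8, 30.9 and 38.9 CPM in PBS, 32.4, 37.7, 33.3 and 40.7 CPM in Upy-PEG and 34.2, 65.4, 44.5 and 31.7 CPM with antimiR-195. PBS replicates 2 and 3 lay below every Upy-PEG library, PBS replicates 1 and 4 lay within the Upy-PEG range, and antimiR-195 replicate 2 was the highest library. Its log2 fold change was 0.098 (SE 0.21) against PBS (adjusted p = 0.895), with the sign turning at -0.02 without PBS replicate 2, and 0.29 (SE 0.21) for antimiR-195 against Upy-PEG (adjusted p = 0.516), or 0.02 without antimiR-195 replicate 2. Cenpf, a large protein of the outer kinetochore that also sits at the nuclear envelope, lay between 10.4 and 17.9 CPM in PBS, 10.05 and 22.7 CPM in Upy-PEG and 10.7 and 19.3 CPM with antimiR-195. Its differences were 0.23 (SE 0.24) for Upy-PEG against PBS, which ran from 0.03 without Upy-PEG replicate 3 to 0.397 without Upy-PEG replicate 4, and -0.096 (SE 0.24) for antimiR-195 against Upy-PEG, which changed sign to 0.096 without Upy-PEG replicate 3.

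Ndc80 and its partners Nuf2 and Spc25 form most of the complex that grips the microtubule end. Ndc80 read 1.14, 1.103, 1.499 and 2.31 CPM in PBS, 4.88, 3.54, 2.54 and 3.36 CPM in Upy-PEG and 1.58, 2.24, 1.42 and 1.94 CPM with antimiR-195. The Upy-PEG libraries stood clear above both other groups, with 1.25 (SE 0.27) against PBS (adjusted p = 0.0971) and -0.996 (SE 0.27) for antimiR-195 against Upy-PEG (adjusted p = 0.364). Nuf2 and Spc25 differed from PBS by 1.11 (SE 0.38) and 1.22 (SE 0.32). The motor gene Cenpe, which carries chromosomes to the spindle equator, differed from PBS by 1.14 (SE 0.32) without overlap.

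In all 4 checkpoint genes every Upy-PEG library lay above every PBS library, against 5.91% of all genes tested. Their median log2 fold change was 0.96. Bub1 encodes a kinase that builds the checkpoint signal at kinetochores, and it had the largest fold change of the 44 genes. It held 0.847, 0.806, 1.96 and 1.67 CPM in PBS, 5.44, 4.06, 2.62 and 2.84 CPM in Upy-PEG and 1.53, 2.41, 1.47 and 1.94 CPM with antimiR-195. The Upy-PEG values were above all others, by 1.51 (SE 0.32) against PBS (adjusted p = 0.0971), and antimiR-195 against Upy-PEG gave -1.03 (SE 0.32) (adjusted p = 0.364). Bub1b encodes BubR1, a part of the complex that inhibits Cdc20. Its libraries read 3.16, 2.59, 4.12 and 4.5 CPM in PBS, 9.696, 6.01, 4.52 and 5.06 CPM in Upy-PEG and 2.74, 3.44, 2.44 and 3.405 CPM with antimiR-195. PBS replicate 4 lay just under Upy-PEG replicate 3, and all 4 antimiR-195 libraries were below every Upy-PEG library. The differences were 0.82 (SE 0.25) against PBS (adjusted p = 0.151) and -1.07 (SE 0.25) for antimiR-195 against Upy-PEG (adjusted p = 0.364). Without Upy-PEG replicate 1 the first value was 0.54.

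Mad2l1 encodes Mad2, which captures Cdc20 while chromosomes are unattached. Its levels were 3.97, 4.07, 5.995 and 5.097 CPM in PBS, 9.51, 9.32, 7.94 and 6.65 CPM in Upy-PEG and 6.36, 8.22, 6.35 and 6.19 CPM with antimiR-195. Every PBS library was below every library of the other groups, while antimiR-195 replicate 2 lay within the Upy-PEG range. Against PBS the log2 fold change of Upy-PEG was 0.81 (SE 0.17) (adjusted p = 0.0971), and antimiR-195 against Upy-PEG gave -0.302 (SE 0.17) (adjusted p = 0.422). Ttk, the kinase Mps1 that starts the checkpoint signal, did not overlap in either comparison, at 1.09 (SE 0.302) and -0.81 (SE 0.3), the latter -0.53 without Upy-PEG replicate 1.

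The anaphase genes act with the anaphase-promoting complex: Cdc20 activates it, Ube2c is its ubiquitin-conjugating enzyme, Cdca3 is a substrate, and Espl1 is separase, which cuts cohesin. Their median log2 fold change in Upy-PEG against PBS was 0.98, and 2 of the 4 did not overlap, against 5.91% of all genes tested. Ube2c held 3.55, 3.05, 4.58 and 5.85 CPM in PBS, 12.9, 9.58, 7.5 and 8.38 CPM in Upy-PEG and 4.22, 12.7, 6.696 and 5.88 CPM with antimiR-195. The antimiR-195 libraries ran from the PBS range into the Upy-PEG range, which only replicate 2 reached. The fold changes were 1.17 (SE 0.31) for Upy-PEG against PBS (adjusted p = 0.114) and -0.38 (SE 0.3) for antimiR-195 against Upy-PEG (adjusted p = 0.539). Without antimiR-195 replicate 2 the second value was -0.79, and without Upy-PEG replicate 1 it was -0.21.

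Cdc20 read 2.96, 3.69, 4.41 and 5.97 CPM in PBS, 11.4, 8.89, 5.67 and 5.91 CPM in Upy-PEG and 3.48, 8.18, 3.13 and 3.75 CPM with antimiR-195. PBS replicate 4 was above Upy-PEG replicates 3 and 4, and the difference was 0.91 (SE 0.33) (adjusted p = 0.229). Cdc20 lies partly over the protein-coding gene Elovl1 on the opposite strand, and Ube2c over Tnnc2. The same holds for Ccna2 with Exosc9, Ncapg with Lcorl, Kif4 with Pdzd11, Cdca8 with 9930104L06Rik and Kif20a with Cdc23. Prc1 lies wholly within the span of the opposite-strand gene Rccd1. Among overlaps with non-coding genes, Kif18b lies wholly within the span of Gm26668 on the opposite strand. The kit keeps strand, but how strand was set in counting is not given in the sources used here. The counts of these genes are therefore uncertain in part, and those of Prc1 and Kif18b may be so along the whole gene. Espl1 and Cdca3 differed from PBS by 0.88 (SE 0.27) and 1.04 (SE 0.34). None of the 4 anaphase genes was free of overlap between antimiR-195 and Upy-PEG, against 2.46% of all genes tested.

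The chromosomal passenger complex joins the kinase Aurora B (Aurkb) to Incenp and borealin (Cdca8). Incenp held 6.32, 7.25, 7.58 and 8.601 CPM in PBS, 15.4, 11.1, 8.93 and 12.1 CPM in Upy-PEG and 7.38, 9.12, 5.72 and 7.66 CPM with antimiR-195. Upy-PEG replicate 3 stood just above PBS replicate 4, and the difference was 0.68 (SE 0.18) (adjusted p = 0.114), the smallest of the 44 after Cenpa and Cenpf. Between antimiR-195 and Upy-PEG it was -0.67 (SE 0.18) (adjusted p = 0.364). Aurkb held 1.47, 1.49, 3.62 and 4.06 CPM in PBS, 7.43, 5.55, 3.57 and 5.36 CPM in Upy-PEG and 1.81, 5.72, 2.69 and 3.096 CPM with antimiR-195. PBS replicates 3 and 4 lay above Upy-PEG replicate 3, so the groups overlapped, with 1.05 (SE 0.39) (adjusted p = 0.245). Cdca8 differed from PBS by 1.18 (SE 0.34) without overlap.

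In cytokinesis, Prc1 bundles the midzone microtubules, Kif20a carries the passenger complex there, and Kif23 with Racgap1 forms centralspindlin. Centralspindlin recruits Ect2, which activates RhoA, and anillin (Anln) holds the contractile ring together. All 6 genes were higher in Upy-PEG, with a median log2 fold change of 1.07. Of the 6, 3 did not overlap with PBS, against 5.91% of all genes tested. Prc1 read 2.48, 4.07, 5.75 and 6.41 CPM in PBS, 16.7, 10.4, 7.698 and 8.902 CPM in Upy-PEG and 4.55, 8.61, 5.72 and 6.08 CPM with antimiR-195. Upy-PEG was above PBS in every library, by 1.23 (SE 0.304) (adjusted p = 0.108), and antimiR-195 replicate 2 reached into the Upy-PEG range.

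Kif20a had 4.14, 3.48, 5.58 and 5.81 CPM in PBS, 14.5, 8.33, 7.78 and 8.38 CPM in Upy-PEG and 4.41, 5.98, 4.01 and 5.84 CPM with antimiR-195. Upy-PEG stood above both other groups, and its replicate 1 far above its other 3 libraries. The log2 fold changes were 1.04 (SE 0.23) against PBS (adjusted p = 0.0971) and -0.94 (SE 0.23) for antimiR-195 against Upy-PEG (adjusted p = 0.364). For Kif23 the levels were 3.42, 2.76, 4.54 and 6.17 CPM in PBS, 11.8, 7.07, 4.96 and 7.31 CPM in Upy-PEG and 4.32, 5.25, 2.54 and 4.33 CPM with antimiR-195. PBS replicate 4 lay within the Upy-PEG range, and the difference from PBS was 0.88 (SE 0.297) (adjusted p = 0.2). Racgap1, Ect2 and Anln differed from PBS by 1.01 (SE 0.26), 1.18 (SE 0.34) and 1.098 (SE 0.31). For antimiR-195 against Upy-PEG all 6 genes lay between -0.95 and -0.81; without Upy-PEG replicate 1, Prc1 and Anln were at -0.53.

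AntimiR-195 is aimed at miR-195. The mature forms mmu-miR-195a-5p and mmu-miR-195b share bases 2 to 8, the seed that pairs with target transcripts, and are printed with the seed in capitals (RefSeq, GRCm38.p6), the first from chr11:70235062-70235082 and the second from chr2:56785825-56785846, both on the plus strand.
mmu-miR-195a-5p: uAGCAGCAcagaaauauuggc
mmu-miR-195b: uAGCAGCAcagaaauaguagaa

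The complement of the seed, TGCTGCT, was searched in each gene's longest 3′ untranslated region (GENCODE release M21, GRCm38). It was found in 3 of the 44 genes (6.8%), against 3300 of the 13317 tested genes with a searched region (24.8%). A longer region has more chance of a match, and the 2 shares were not adjusted for length. Among the 44 genes the searched region ran from 62 bases (Cdc20) to 6802 bases (Mad2l1). The sites are shown with 10 bases before the match and a stretch after it, capitals marking the match, and in Kif23 also the following A.
Aurka (base 140 of the 606 in the region, chromosome 2): ccaagaaccaTGCTGCTtttcctgattt
Hmmr (base 909 of 1444, chromosome 11): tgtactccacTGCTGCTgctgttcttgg
Hmmr (base 912 of 1444, overlapping the first): actccactgcTGCTGCTgttcttggtag
Kif23 (base 192 of 384, chromosome 9): aacaaacaaaTGCTGCTAttgattagct

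For antimiR-195 against Upy-PEG, the log2 fold changes of these genes were -0.66 (SE 0.27) for Aurka, -0.91 (SE 0.34) for Hmmr (-0.515 without Upy-PEG replicate 1) and -0.92 (SE 0.298) for Kif23. All were lower with antimiR-195. Their median was -0.91, and that of the 41 genes without a site was -0.81. Since the 2 antimiR-195 libraries that stand apart differ in how counts depend on gene length, the 44 genes were also split at their median length. The shorter 22 genes had a median of -0.73 and the longer 22 a median of -0.93 for antimiR-195 against Upy-PEG, and 1.08 and 1.14 for Upy-PEG against PBS.

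Other genes of mitosis, listed apart from the 44, mostly differed in the same directions. Of 42 further mitosis genes, 38 were higher in Upy-PEG than in PBS, with a median log2 fold change of 0.89. At an unadjusted p under 0.05, 32 were higher, against 9.33% of all genes tested. Against Upy-PEG, 38 of the 42 were lower with antimiR-195, at a median of -0.59. Pttg1, the gene of securin, was among the 4 lower in Upy-PEG than in PBS, at -0.314 (SE 0.285). It was also among the 4 higher with antimiR-195 than in Upy-PEG, at 0.617 (SE 0.285). Cep55, a scaffold of the final abscission, read 0.912, 1.103, 1.83 and 2.43 CPM in PBS, 5.75, 4.79, 3.41 and 4.14 CPM in Upy-PEG and 1.25, 2.93, 1.51 and 2.75 CPM with antimiR-195. Its difference was 1.53 (SE 0.33) for Upy-PEG against PBS (adjusted p = 0.0971). Birc5, which encodes survivin of the passenger complex, differed by 1.25 (SE 0.28) (adjusted p = 0.0971). Cep55 and Birc5 were among the 18 of the 42 genes without overlap between Upy-PEG and PBS, against 5.91% of all genes tested.

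Genes of the G1 and S phases differed less. Of 28, 23 were higher in Upy-PEG than in PBS, at a median log2 fold change of 0.38. At an unadjusted p under 0.05, 14 of the 28 were higher, against 9.33% of all genes tested. With antimiR-195, 23 were lower than in Upy-PEG, at a median of -0.29. Mcm3, a subunit of the replicative helicase, differed from PBS by 0.68 (SE 0.15) (adjusted p = 0.0971), and Tyms, thymidylate synthase, by 0.85 (SE 0.25) (adjusted p = 0.139). Known regulators of mitotic genes, among them subunits of the DREAM and MuvB complexes and E2F factors, were near the background in Upy-PEG against PBS. Of 15, 10 were higher in Upy-PEG, at a median of 0.07. Those of lowest p were E2f8, an E2F repressor, at 0.77 (SE 0.29) (adjusted p = 0.251), and Mybl2, which encodes B-Myb, at 0.998 (SE 0.39) (adjusted p = 0.276). Against Upy-PEG, 11 of the 15 regulators were lower with antimiR-195 and 4 higher, at a median of -0.14. At an unadjusted p under 0.05 in edgeR, 3 of them were lower, against 6.4% of all genes tested. In 3 of the 15 every antimiR-195 library lay below every Upy-PEG library, against 2.46% of all genes. Of 14 cell cycle inhibitors, 8 were higher and 6 lower in Upy-PEG than in PBS, at a median of 0.11. Cdkn1a, the gene of p21, differed by 0.89 (SE 0.29) (adjusted p = 0.194) and Cdkn1c, the gene of p57, by -0.49 (SE 0.18) (adjusted p = 0.24). None of the genes in these 4 lists passed an adjusted p of 0.05 in edgeR in any of the 3 comparisons.

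Markers of several cell types differed between the groups, and their part in the mitotic values was not tested. Of 16 macrophage markers, 15 were higher in Upy-PEG than in PBS, at a median log2 fold change of 0.72. Their summed level ran from 727 to 1100 CPM in PBS, from 1307 to 1891 CPM in Upy-PEG and from 921 to 1804 CPM with antimiR-195. Fibroblast markers were higher in 11 of 11, at a median of 0.33, summing to 3032 to 4942 CPM in PBS, 4087 to 8514 CPM in Upy-PEG and 2862 to 4741 CPM with antimiR-195. Neutrophil markers were higher in 7 of 7 tested of 8 listed, yet summed to at most 40.0 CPM in any library. T and B cell markers summed to at most 6.35 CPM, and 5 of 11 passed the filter on low counts.

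Cardiomyocyte markers were lower in Upy-PEG than in PBS in 12 of 12, at a median log2 fold change of -0.30, and summed to 95060 to 108500 CPM in PBS, 69900 to 92460 CPM in Upy-PEG and 93000 to 101300 CPM with antimiR-195. Endothelial markers were lower in 10 of 10 at a median of -0.12, and mural cell markers in 7 of 9 at a median of -0.15. Their sums were 1025 to 1205 CPM and 3252 to 3736 CPM in PBS, 954 to 1119 CPM and 3499 to 3987 CPM in Upy-PEG, and 857 to 1138 CPM and 3397 to 4473 CPM with antimiR-195. Erythroid markers were lower in 7 of 7 at a median of -0.95, from 481 to 1459 CPM in PBS, 254 to 551 CPM in Upy-PEG and 547 to 1315 CPM with antimiR-195. No marker of any list was at 0 in all 12 libraries. For antimiR-195 against Upy-PEG the medians were -0.34 for macrophage, -0.24 for fibroblast, 0.26 for cardiomyocyte, 0.04 for endothelial and 1.03 for erythroid markers. They were -0.82 for neutrophil markers, with all 7 tested lower, -0.095 for mural cell markers and -0.08 for T and B cell markers. Upy-PEG replicate 1, the highest library for most mitotic genes, also held the highest fibroblast sum and the lowest cardiomyocyte and erythroid sums of all 12 libraries. The highest macrophage sum was in Upy-PEG replicate 2.

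**Figure D4:**
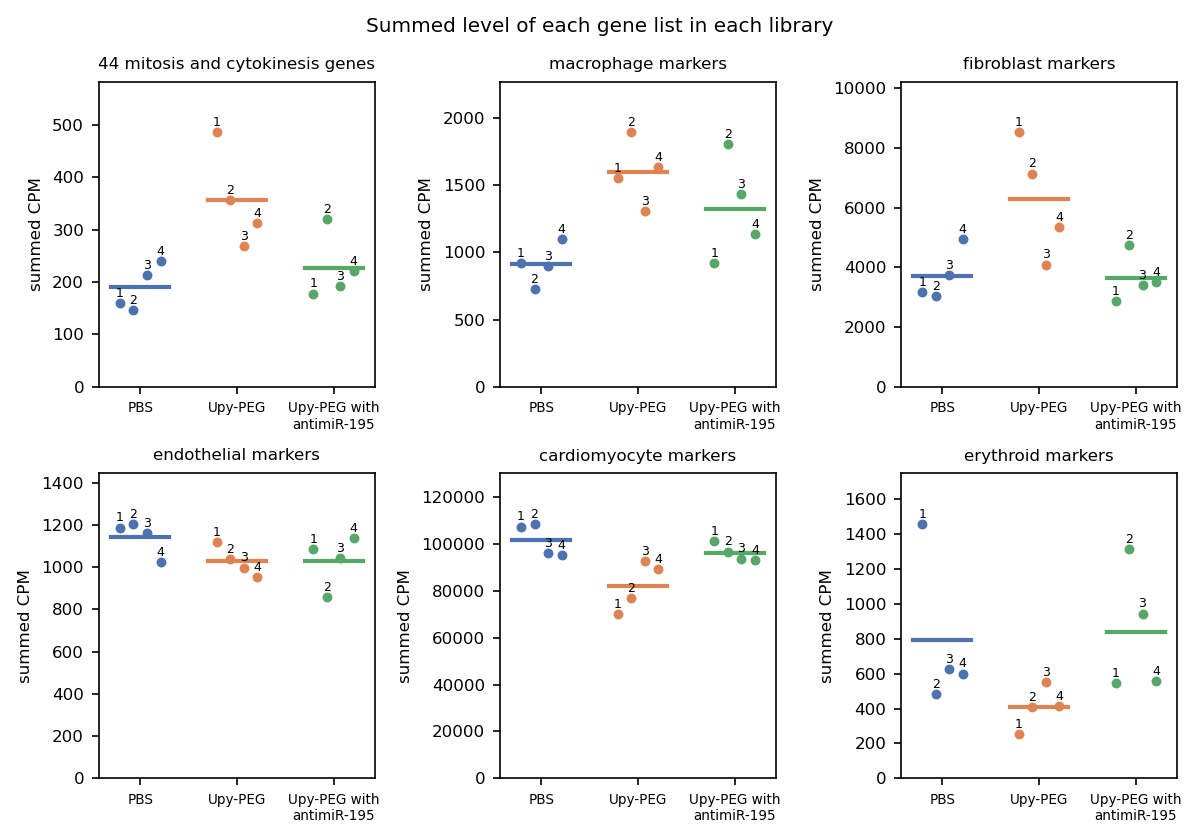
Summed CPM of the 44 mitosis and cytokinesis genes and of 5 lists of cell type markers in each library; each point is a library with its replicate number, and each bar is the mean of the 4 libraries of the group. Upy-PEG replicate 1 is highest for the 44 genes and for the fibroblast markers and lowest for the cardiomyocyte and erythroid markers.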

How the data were processed

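Polyadenylated RNA of 12 left ventricle samples was sequenced from stranded libraries, per the labels' protocols. The submitters' processing notes name STAR, HTSeq, DESeq and the build GRCm38; versions and the strand setting are not given in the sources used here. The deposited values are raw read counts per gene and the authors' RPKM. The count table equalled the per-sample files in all 459516 cells, and special HTSeq rows (reads on no gene, 6.25% to 8.77%) were left out. GENCODE M21 gave 36429 of 38293 gene IDs a symbol.

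Counts of all 12 libraries were fitted together with edgeR 4.0.16 (R 4.3.3): filterByExpr by group, TMM factors and quasi-likelihood tests of group means. The fit had 9 residual degrees of freedom, and p-values were adjusted over 14770 genes (Benjamini-Hochberg) and called at 0.05. The SE is the log2 fold change divided by the square root of F. CPM are TMM-scaled counts, with 2 as the prior count on the log2 scale. Depth of 22.4 to 30.3 × 10⁶ counts limits the precision of the lowest genes. Replicate numbers follow deposition order and pair nothing. Alternatives were DESeq2 1.42.0, limma 3.58.1 (voom with sample weights, and trend on log2(RPKM + 0.1)), RLE factors, library size alone, a threshold of 0.10, no filter, a minimum mean CPM of 1, a fit of the 8 libraries of each comparison, each library left out in turn, and 2 settings added after the data were seen.

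The members and all gene lists were chosen with earlier results of these data known. In each step the member of highest mean CPM and those of lowest and highest p in Upy-PEG against PBS were named with every library's value, and from each further cell cycle list the 2 genes of lowest p; other members are given by fold change, range and count.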

Additional observations from a re-analysis of the deposited data

Results flagged for a closer look

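Within the groups of 4, each gene's CPM was searched for a library far from the others, meaning a gap to its nearest neighbour, as a share of the group's whole range, above Dixon's critical value for 4 samples. Of 135 groups searched (132 for the 44 genes and 3 for their summary level), 9 held such a library. That is near the share of about 1 in 20 that chance alone gives in independent groups. The genes moved together: within its group, Upy-PEG replicate 1 was highest for 40 of the 44 genes and antimiR-195 replicate 2 for 37. The 9 are therefore not separate observations. All 9 belong to either Upy-PEG replicate 1 or antimiR-195 replicate 2, each time as the high value. In Upy-PEG replicate 1, Ccnb1 stood at 6.43 CPM against 2.88 to 3.29 CPM in the other 3 libraries, and Ccnf at 4.97 CPM against 3.01 to 3.33 CPM. Ttk stood there at 3.01 CPM against 1.51 to 1.75 CPM, and Kif20a at 14.5 CPM against 7.78 to 8.38 CPM. In antimiR-195 replicate 2, Ccnb2 stood at 8.82 CPM against 3.25 to 3.91 CPM, Kif22 at 6.71 CPM against 2.46 to 3.08 CPM, and Mad2l1 at 8.22 CPM against 6.19 to 6.36 CPM. Cdc20 stood there at 8.18 CPM against 3.13 to 3.75 CPM, and Cdca3 at 10.2 CPM against 3.48 to 4.11 CPM.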

How the results depend on the processing

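The median log2 fold change of the 44 genes kept its sign in all 3 comparisons under every alternative and moved by less than the spread between libraries (SD 0.41). For antimiR-195 against PBS the main median of 0.25 is itself below that spread, so this measure could not show its loss. There the median was 0.04 without antimiR-195 replicate 2. In limma voom with sample weights it was also 0.04, with 23 genes higher and 21 lower. The number of genes called did not hold. For Upy-PEG against PBS it was 0 of 44 in edgeR at 0.05, 8 at an adjusted p under 0.10 (1.05% of all genes tested, in either direction), 2 with no filter (0.288%), 33 in DESeq2 (3.58%), 31 in limma voom (6.22%) and 4 with only the 8 libraries compared (1.18%). Among the settings chosen after seeing the data, it was 18 with antimiR-195 replicates 2 and 3 left out (2.31%) and 10 with the gene length slope of each library as a covariate (2.25%). For antimiR-195 against Upy-PEG it was 2 in DESeq2 (0.0756%) and 0 otherwise. Leaving out any single library of the 2 groups compared gave 0 calls among the 44 genes. Cenpa ran from -0.023 to 0.192 in Upy-PEG against PBS over the fits that left out a library, and for antimiR-195 against Upy-PEG it was -0.128 with both antimiR-195 libraries left out and -0.085 with the covariate. Of the 20 genes named with every library's value, 13 changed sign in antimiR-195 against PBS under some alternative, and none of them passed the threshold there; the cause was not tested. With library size alone, the median of all genes shifted from -0.01 to -0.16 for antimiR-195 against Upy-PEG, and that of the 44 genes from -0.81 to -0.98. No paired analysis was possible because the labels carry no replicate numbers. The low counts of the rarest genes, such as the 12 counts of Ttk in its lowest library, limit the precision of their fold changes.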
